A study of Homo sapiens with 6 samples.

Results

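The 8 transcripts described here encode core proteins of the microRNA pathway: the Argonautes AGO1, AGO2 and AGO3, the scaffold proteins TNRC6A, TNRC6B and TNRC6C, and the RNase III enzymes DICER1 and DROSHA. They were chosen by gene name and located by coordinates on hg19, and every listed HuR site on the gene's strand that overlapped its span was taken. The 8 spans cover 967 kb and held 384, 802 and 994 sites in HuR replicates 1, 2 and 3, out of 186157, 405048 and 550681 sites in those lists. The combined list held 1162 of 658853 sites in them. The authors' second combined list, labelled p 0.05 and called p-filtered below, held 750 of 373845 intervals.

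The samples come from HEK293, an established human embryonic kidney line, and carry no treatment. In DO-RIP-seq, lysate is digested with micrococcal nuclease, RNA fragments bound to a protein are recovered with an antibody, and fragments of 25 to 70 nt are sequenced. The 3 HuR samples were recovered with the mouse antibody 3A2 and the 3 negative controls with normal mouse serum, all from digested lysate that was pooled before it was divided. The samples are therefore not shown to come from separate cultures, and each SD below may cover technical spread alone. The negative controls were not analysed here as separate values, so no background level is given beside the sites. Each site carries the authors' LOD score, whose scale differs between lists, so scores are compared as percentiles within a list.

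HuR, the product of ELAVL1, binds U-rich and AU-rich RNA and is known for contacts in introns and in 3′ untranslated regions. In the nucleus, DROSHA cuts primary microRNA transcripts into hairpins, and in the cytoplasm DICER1 cuts the hairpins into short duplexes. An Argonaute protein holds 1 strand of the duplex as a guide to target mRNAs, AGO2 being the member best known for cutting its target. TNRC6 proteins bind Argonautes and recruit the deadenylases that shorten the tails of target mRNAs.

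Sites in these spans lay almost entirely on the strand of the gene. Replicates 1, 2 and 3 had 3, 0 and 16 sites on the opposite strand, so 99.2% ± 0.792 (SD, n = 3) of the sites followed the named gene. TNRC6B contributed 7 of the 16 opposite-strand sites of replicate 3. The lists hold no gene names, so strand is the one check of the gene assignment that they allow. Read depth per library is unknown, and a span without a site does not show that its RNA is unbound. With 3 replicates an exact two-sided sign-flip test cannot give p below 0.25, so values and their spread are given without p-values.

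Site density differed several-fold between the genes and kept nearly the same order in each replicate. To allow for unequal list sizes, density is the number of sites per 10 kb of span per 100000 sites of the list. It was highest for DICER1, at 4.00, 3.74 and 3.11 in replicates 1, 2 and 3, or 3.62 ± 0.457 on average (SD, n = 3). TNRC6A followed with 3.40, 3.66 and 3.02, and DROSHA with 3.26, 3.34 and 2.88. DICER1 was above TNRC6A and TNRC6A above DROSHA in 3 of 3 replicates, although the ranges of these neighbours overlapped. AGO3 had 2.74, 2.78 and 2.52, below DROSHA without overlap.

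AGO1 varied most, with 3.27, 2.28 and 1.81, a range that overlaps those of AGO3, DROSHA, TNRC6A and DICER1. It had 25, 38 and 41 sites, 1.64 times as many in replicate 3 as in replicate 1, where the lists differed 2.96-fold. TNRC6C, with 1.08, 1.18 and 1.16, and TNRC6B, with 1.14, 1.01 and 1.14, did not differ beyond their spread and lay below the 5 genes above them without overlap. AGO2 was the lowest gene in every replicate, at 0.875, 0.544 and 0.609, or on average 0.676 ± 0.175 (SD, n = 3). Density counts listed sites only, and it was not corrected for transcript abundance, which these files do not give.

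**Figure D1:**
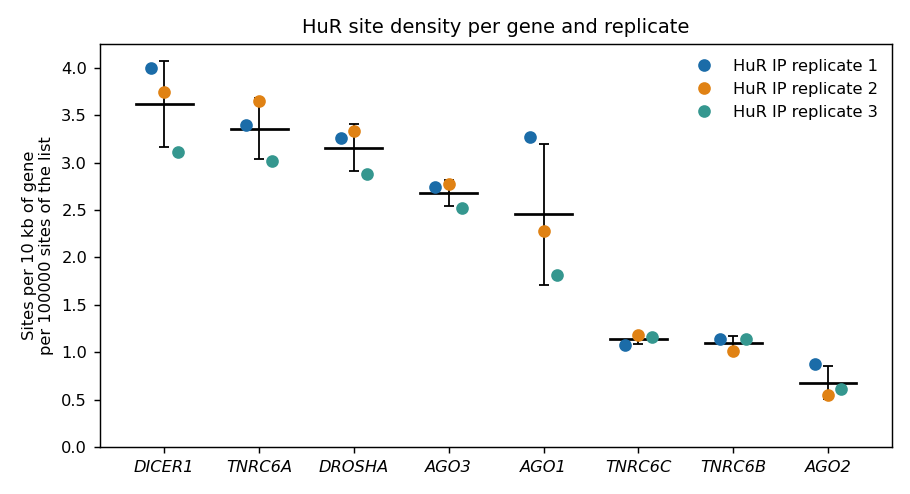
HuR sites per 10 kb of gene span per 100000 sites of the replicate's list, for each of the 8 genes ordered by mean. Points are the 3 HuR immunoprecipitation replicates, the horizontal line is the mean and the bar the SD. DICER1 is highest at a mean of 3.62, AGO2 lowest at 0.676, and TNRC6C, TNRC6B and AGO2 lie below all points of the other 5 genes.

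DICER1 combined a spread of sites along the gene with a dense stretch at its 3′ end. It had 53, 108 and 122 sites in replicates 1, 2 and 3 over chr14:95552565-95623759 on the minus strand. All 53 replicate 1 sites overlapped a site of both other replicates, where 89.1% of all replicate 1 sites did. The last 5 kb held 18, 18 and 19 sites, and 50.2% of the bases called in all 3 replicates in a window that is 7.02% of the span. The 10-kb window of the genome grid at this end held 1660 nt called in all 3 replicates, the 99.8th percentile of 46145 strand-specific windows with such a base. It was picked as the highest of 8 such windows of the gene, whose median was 160 nt against 90 nt over all windows. The highest combined LOD of the gene, 18.1, was at chr14:95555341-95555545, 2.88 kb from the end, where the replicate scores stood at percentiles 84.8, 96.8 and 93.1. Its widest recurrent site, chr14:95554266-95554660, ran over 395 nt but scored low, at percentiles 17.4, 41.6 and 10.9. Away from the end, the rest of the gene still held 35, 90 and 103 sites. Over the whole gene, the end included, 13 of 15 bins of 5 kb held a recurrent site. Recurrent means a combined site that overlaps a site of all 3 replicate lists, as 22.9% of all combined sites do.

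DROSHA carried the most sites of the 8 genes, and most lay away from its 3′ end. Its span, chr5:31400601-31532282 on the minus strand, held 80, 178 and 209 sites in replicates 1, 2 and 3. Of these, 5, 6 and 8 were in the last 5 kb. Recurrent sites were found in 23 of its 27 bins of 5 kb. The highest combined LOD was 20.3 at chr5:31405071-31405145, 4.51 kb from the end, with percentiles 99.0, 99.5 and 97.4. A site 29.1 kb from the end, chr5:31429706-31429790, had a combined LOD of 19.7 and percentiles 97.7, 96.6 and 99.4. A further site at chr5:31479661-31479800, 79.1 kb from the end, stood above percentile 95.3 in each replicate. DROSHA therefore supplied 3 of the 10 sites with the highest lowest percentile over the replicates.

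TNRC6A resembled DROSHA in its spread. Its span, chr16:24741049-24838949 on the plus strand, held 62, 145 and 163 sites, with recurrent sites in 16 of 20 bins of 5 kb. The last 5 kb held 6, 10 and 10. The site at chr16:24830646-24830710, 8.27 kb from the end, had the highest combined LOD of all 8 genes, 21.5, and the highest lowest percentile, with 99.7, 98.9 and 99.3 in replicates 1, 2 and 3. Another TNRC6A site among the 10 leading ones, chr16:24791086-24791210, lay 47.8 kb from the end.

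TNRC6B was dense over its last 15 kb and sparse over most of its length. Its span, chr22:40440821-40731812 on the plus strand, is the longest, and held 62, 119 and 183 sites. The last 5 kb held 15, 16 and 14 sites, and the 5 kb before that 17, 20 and 22. Recurrent sites were in 15 of 59 bins, and the last 3 bins held 10, 11 and 6 of its 45 recurrent sites. The window chr22:40720001-40730000 held 1635 nt called in all 3 replicates, the 99.7th percentile of windows. It was picked as the highest of 13 windows of TNRC6B with such a base, whose median was 80 nt against 90 nt over all windows. Its 3 sites among the 10 with the highest lowest percentile lay in the last 15 kb: chr22:40727596-40727680 with a combined LOD of 21.4, chr22:40731586-40731740 with 20.9 and chr22:40724831-40724980 with 17.3. At the first of these the replicate percentiles were 99.8, 100.0 and 95.4. A site with a combined LOD of 18.7 lay further in, at chr22:40696391-40696460, 35.4 kb from the end, with percentiles 83.2, 98.7 and 98.6. It is outside the rule for named sites and was singled out after its values were seen.

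TNRC6C had fewer sites than the other TNRC6 genes, 21, 50 and 67 over chr17:76000318-76104916 on the plus strand. The last 5 kb held 9, 12 and 15 of them, and 49.2% of the bases called in all 3 replicates in 4.78% of the span. Its highest combined LOD, 18.0, was elsewhere, at chr17:76081896-76081960, 23.0 kb from the end, with percentiles 88.2, 97.7 and 98.5.

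The Argonautes differed from each other in where their sites lay. AGO3 spans chr1:36396679-36522063 on the plus strand and carried 64, 141 and 174 sites, and its densest stretch was inside the gene. Between 75 and 90 kb from the end, the 5-kb bins held 10, 8 and 6 recurrent sites, together 24 of its 54. Its last 5 kb held 4, 4 and 5 sites. The site at chr1:36434456-36434560, 87.6 kb from the end, had a combined LOD of 18.1 and percentiles 98.3, 98.1 and 98.9, and chr1:36502266-36502325 had the highest LOD, 18.2. The stretch from 75 to 90 kb was singled out after its values were seen.

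The AGO1 span, chr1:36348810-36389899 on the plus strand, carried 11, 12 and 13 sites in its last 5 kb and 14, 26 and 28 in the rest. The sites near its end scored low, with median percentiles of 5.66, 11.3 and 4.14 in replicates 1, 2 and 3, against 54.6, 56.1 and 50.5 in the rest of the span. Of 9 recurrent sites there, 7 had a combined score below the median of the list, and of 14 recurrent sites elsewhere none did. Its highest combined LOD, 15.3 at chr1:36362571-36362625, was uneven between replicates, at percentiles 46.8, 85.5 and 98.3. AGO2, at chr8:141541265-141645646 on the minus strand, had 17, 23 and 35 sites, of which 7, 8 and 8 were in the last 5 kb. Its leading site, chr8:141552641-141552740, lay 11.4 kb from the end with a combined LOD of 18.7 and percentiles 97.3, 99.7 and 97.3.

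**Figure D2:**
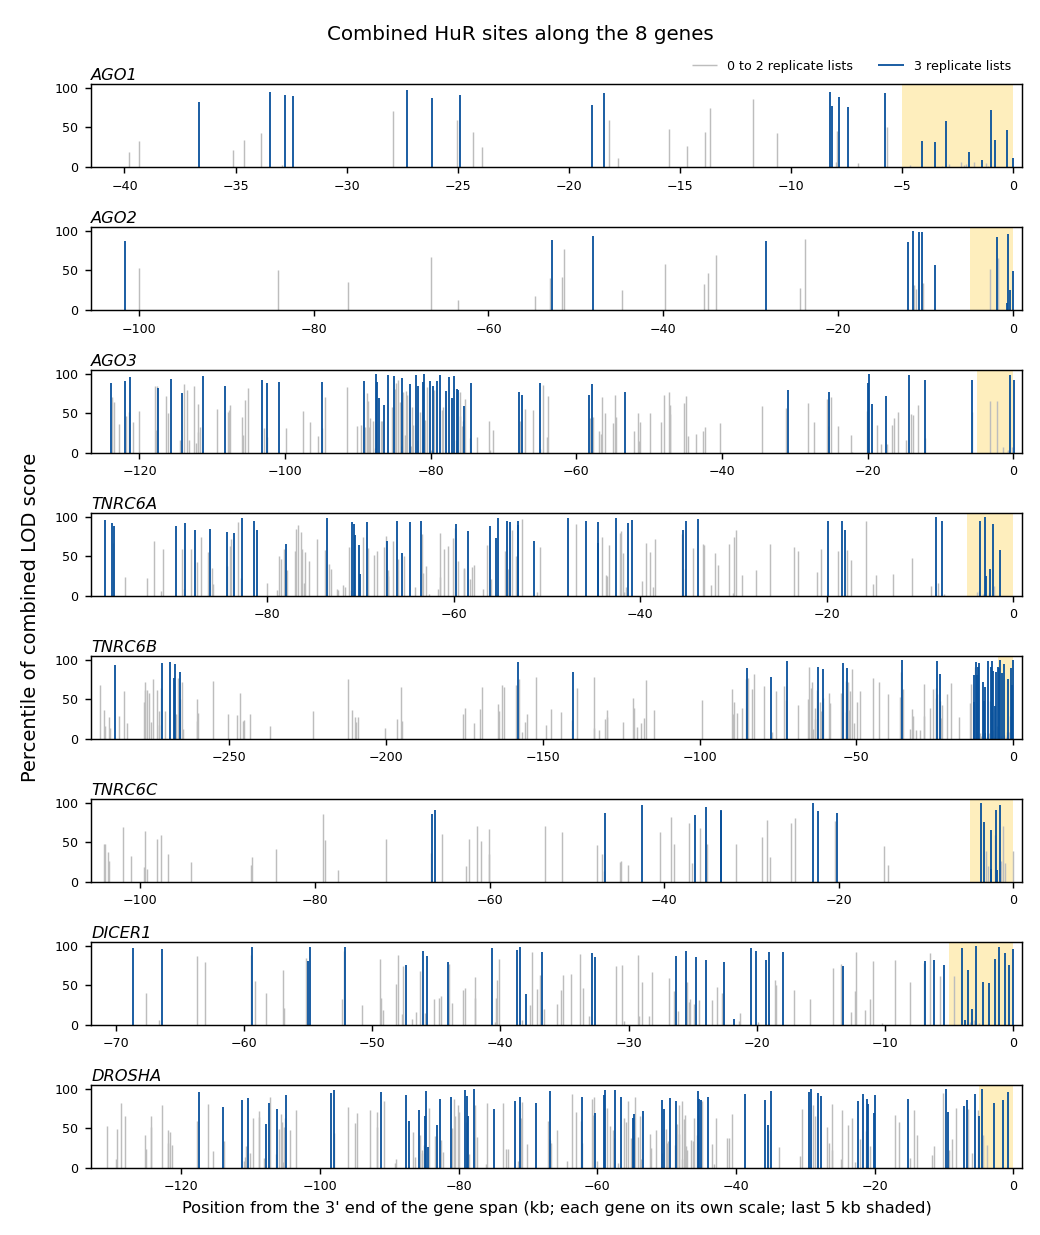
Combined-list HuR sites along each gene, 5′ to 3′ from left to right, by distance in kb from the 3′ end of the span and by the percentile of the combined LOD score. Blue lines are sites that overlap all 3 replicate lists, grey lines sites in fewer, and the last 5 kb is shaded. Recurrent sites crowd at the end of AGO1, AGO2, TNRC6B, TNRC6C and DICER1 and between 75 and 90 kb from the end of AGO3.

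Sites near the 3′ ends were found at similar numbers in every replicate, whereas the number of sites elsewhere followed list size. Over the 8 genes the last 5 kb held 75, 86 and 92 sites in replicates 1, 2 and 3, and the rest of the spans 309, 716 and 902. The ratio of replicate 3 to replicate 1 was 1.23 near the ends and 2.92 in the rest, beside 2.96 for the lists. In each of the 8 genes the ratio was smaller near the end. There it ran from 0.933 for TNRC6B to 1.67 for TNRC6A and TNRC6C, and in the rest from 2 for AGO1 to 4.33 for TNRC6C. The last 5 kb make up 4.14% of the spans and held 19.5%, 10.7% and 9.26% of the sites, or on average 13.2% ± 5.56 (SD, n = 3). They also held 24.5% of the 17828 nt called in all 3 replicates, with shares from 2.46% for AGO3 to 50.2% for DICER1. These windows were set by the ends of the spans and not by annotated exons, which were not used here on hg19.

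Sites near the ends were wider and did not score higher. In replicates 1, 2 and 3 their median widths were 55, 85 and 72.5 nt, against 45, 57.5 and 50 nt in the rest. Their median percentiles were 34.2, 51.5 and 32.1, against 58.7, 55.7 and 55.9, a difference of -17.5 ± 11.5 points (SD, n = 3). The difference was negative in every replicate for AGO1, AGO2 and TNRC6A and positive in every replicate for DROSHA. Among recurrent sites, 16 of 56 (28.6%) near the ends had a combined score below the median of the list, against 9 of 269 (3.35%) in the rest and 9.69% of all recurrent sites of the list.

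**Figure D3:**
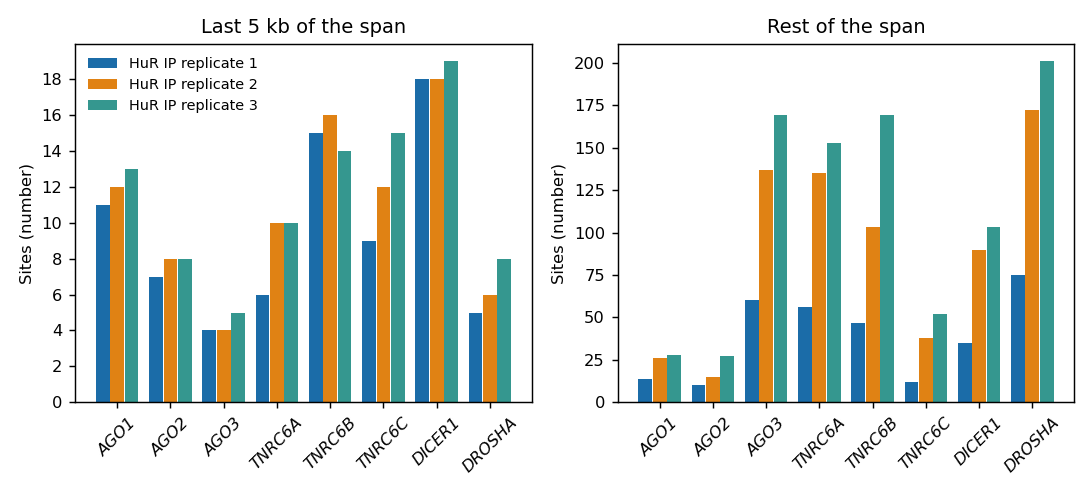
Number of HuR sites per gene in the last 5 kb of the span (left) and in the rest of the span (right), with 1 bar for each HuR immunoprecipitation replicate. The vertical scales differ. Near the ends the bars of a gene run from close in height, as in DICER1 with 18, 18 and 19 sites, to unequal, as in TNRC6C with 9, 12 and 15. In the rest replicate 1 is below replicates 2 and 3 in each gene, as in DROSHA with 75, 172 and 201 and AGO2 with 10, 15 and 27.

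Listed sites went on past the end of the span for the Argonautes, and hardly at all for the other genes. Counting sites by their middle, the first 5 kb past the end held 9, 13 and 13 sites for AGO1 in replicates 1, 2 and 3. For AGO2 the numbers were 12, 14 and 14, and for AGO3 14, 21 and 32. TNRC6A and TNRC6B had at most 2 there, and TNRC6C, DICER1 and DROSHA had 0 in every replicate. Over 20 kb past the end AGO2 had 28, 40 and 38 sites, more than the 17, 23 and 35 inside its span, and 22 of the 45 combined sites there were recurrent. AGO3 had 25, 44 and 58. AGO1 had 10, 13 and 13 in the 6.78 kb that separate its span from that of AGO3. In RefSeq gene order on GRCh38.p14, AGO3 is the next gene past AGO1. The sites past the ends were not counted as sites of these genes, and whether they belong to longer transcripts of them was not tested. The low AGO2 density and the low count at the AGO3 end therefore hold for the spans as given. The 10-kb grid window with the most bases called in all 3 replicates contained the end of the span in each gene except TNRC6B, and for AGO3 most of its 1190 nt lie past the end, since its last 5 kb held 73 nt.

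**Figure D4:**
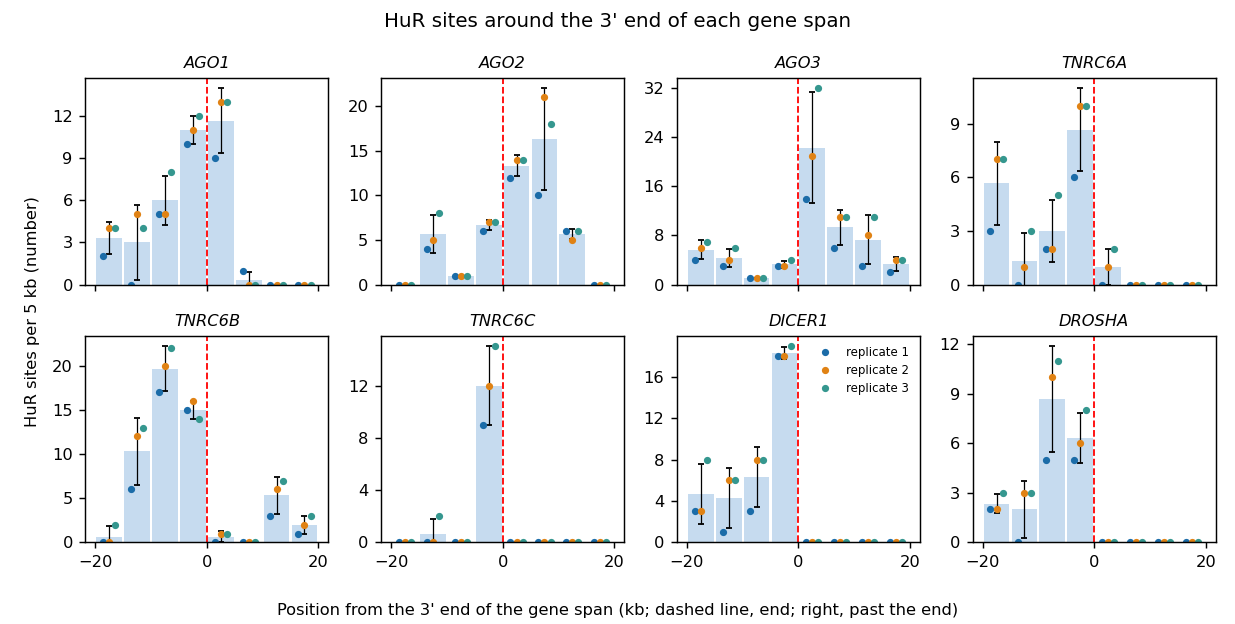
HuR sites per 5 kb within 20 kb on either side of the 3′ end of each span, on the gene's strand. Bars are means of the 3 HuR immunoprecipitation replicates, whiskers the SD, points the replicates and the dashed line the end of the span, and sites inside the span of another of the 8 genes are left out. AGO1, AGO2 and AGO3 have sites past the line, while DICER1, DROSHA and TNRC6C have none.

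Recurrence in the 8 genes was somewhat above that of the whole list and differed between genes. Of the 1162 combined sites, 325 (28.0%, exact 95% Clopper-Pearson interval 25.4 to 30.6, counting error only) were recurrent, where 22.9% of all combined sites were. The share was 41.8% for AGO1 (23 of 55), 38.9% for AGO2 (14 of 36), 31.7% for DICER1 (44 of 139), 29.8% for DROSHA (71 of 238) and 29.6% for TNRC6A (56 of 189). AGO3, with 27.0% (54 of 200), TNRC6C, with 22.8% (18 of 79), and TNRC6B, with 19.9% (45 of 226), were lowest, and their exact intervals include the value of the whole list. These intervals treat sites as independent, although the sites of a gene come from the same 3 libraries, so they do not test any gene against the list. Without replicate 1 the share was 58.4% in the 8 genes and 51.2% in the whole list, and the order of the genes changed. TNRC6A was then highest, at 65.6%, followed by DROSHA, at 65.1%, DICER1, at 64.7%, AGO2, at 61.1%, and AGO3, at 58.5%. AGO1, at 56.4%, was above TNRC6C, at 53.2%, and TNRC6B, at 43.4%, alone. With equal numbers of top-scoring sites per list AGO2 was highest, at 22.2%, AGO1 had 18.2% and TNRC6B, at 12.8%, was again lowest.

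Recurrence was more frequent near the 3′ ends, at 52.3% (56 of 107), than in the rest of the spans, at 25.5% (269 of 1055). This difference of 26.8 percentage points rests largely on replicate 1: without it the difference was 9.75 points, and with equal numbers of top-scoring sites per list it was 4.99. AGO3 went the other way, at 22.2% (2 of 9) near its end and 27.2% (52 of 191) in the rest. The other genes had the higher share near the end, AGO1 by the least, at 47.4% (9 of 19) against 38.9% (14 of 36). By single list, sites near the ends overlapped replicate 1 more often than the rest by 32.7 points and replicate 2 by 6.84, and overlapped replicate 3 less often by a difference of -9.01. Among combined sites of 100 nt or more, 93.0% (40 of 43) were recurrent near the ends and 69.3% (97 of 140) in the rest. Under 50 nt the values were 3.85% (1 of 26) and 3.41% (14 of 410). The shares over the whole list for these widths are not given here.

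Seen from each replicate, 91.1% of the replicate 1 sites in the 8 genes overlapped a site of both other replicates, beside 89.1% for its whole list. For replicate 2 the values were 41.0% and 37.8%, and for replicate 3 33.6% and 28.4%. AGO1 and AGO2 had the highest shares in the larger lists: 60.5% and 65.2% of their replicate 2 sites, and 56.1% and 42.9% of their replicate 3 sites, overlapped both other lists. TNRC6B was lowest in replicates 1 and 3, at 82.3% and 25.7%.

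Of the 1162 combined sites, 683 (58.8%, exact interval 55.9 to 61.6) overlapped an interval of the p-filtered list, beside 52.3% of all combined sites. The p-filtered list is not a subset of the combined sites. It held 750 intervals in the spans, with a highest LOD of 27.1 against 21.5 in the combined list, so intervals and scores differ. TNRC6A, at 65.6%, DROSHA, at 64.3%, and AGO2, at 63.9%, were highest, and TNRC6C, at 46.8%, was lowest. Of the recurrent sites 98.5% overlapped such an interval, beside 98.1% in the whole combined list. Near the 3′ ends 58.9% of the combined sites did so and in the rest 58.8%. Within classes of width the share near the ends was lower. Under 50 nt it was 7.69% of 26 sites near the ends against 31.7% of 410 in the rest. From 50 nt to under 100 nt it was 55.3% of 38 against 70.9% of 505, and at 100 nt or more 93.0% of 43 against 94.3% of 140.

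**Figure D5:**
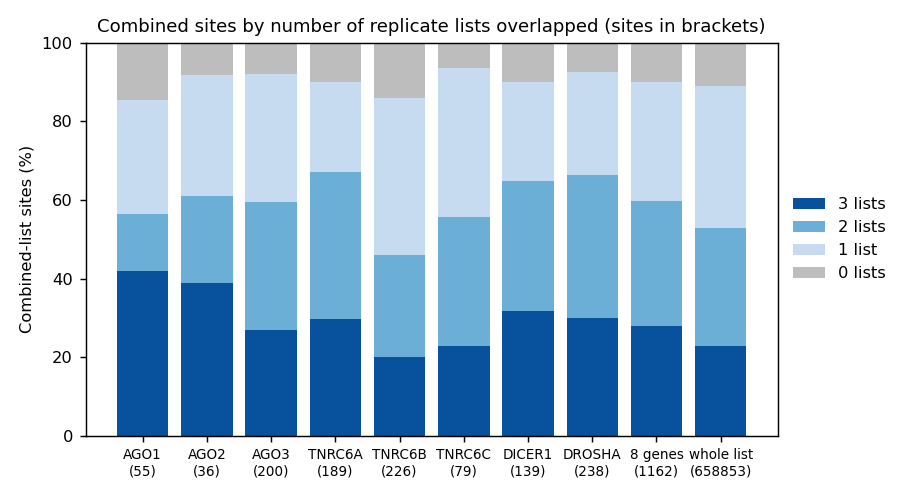
Share of combined-list sites that overlap a site of 3, 2, 1 or 0 replicate lists, for each gene, for the 8 genes together and for the whole list, with the number of combined sites in brackets. The share in 3 lists runs from 19.9% for TNRC6B to 41.8% for AGO1, beside 22.9% for the whole list. Without replicate 1, which the plot includes, AGO1 is at 56.4% and TNRC6A is highest at 65.6%.

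Scores of the 8 genes ranked slightly above the middle of each list. Their median percentiles were 56.9, 55.5 and 54.0 in replicates 1, 2 and 3, averaging 55.5 ± 1.45 (SD, n = 3) where 50 is the middle. AGO1 was the one gene below 50 in every replicate, at 46.8, 41.1 and 32.2. TNRC6B had 68.5, 46.0 and 47.4, AGO2 58.3, 70.8 and 44.0, and the other genes lay between 51.8 and 62.6. Across the sites that replicates share in these genes, Pearson's r of the scores was 0.646 for replicates 1 and 2 (363 sites), 0.600 for replicates 1 and 3 (357 sites) and 0.701 for replicates 2 and 3 (705 sites), with Spearman's rho of 0.628, 0.572 and 0.672. These describe sites that share 3 libraries and are not independent.

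The widest recurrent site of each gene fell in different score ranges. In AGO3 it was chr1:36445086-36445455, 370 nt wide, with percentiles 83.0, 93.9 and 97.0 in replicates 1, 2 and 3. In TNRC6B it was chr22:40720671-40720955, 285 nt wide, with 83.8, 82.7 and 90.3. DROSHA had 280 nt at chr5:31422116-31422395 (61.6, 92.4 and 91.5), TNRC6A 230 nt at chr16:24803751-24803980 (99.9, 86.7 and 87.2) and TNRC6C 180 nt at chr17:76103261-76103440 (66.3, 87.3 and 94.1). Those of AGO1 and AGO2 lay at the very end of the span. The AGO1 site scored below the middle of the list in every replicate, as did that of DICER1. The AGO2 site did so in replicates 2 and 3 only. The AGO1 site, chr1:36389476-36389785, was 310 nt wide with percentiles 18.0, 11.3 and 20.1. The AGO2 site, chr8:141541191-141541440, was 250 nt wide with 57.9, 8.33 and 5.29.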

How the data were processed

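Interval lists were read for 3 HuR immunoprecipitations, grouped and numbered by their titles, and for the 3 combined. The deposited lists give the authors' LOD score per interval. No source used here gives how they called intervals or computed scores. The tools named per the submitters' processing notes are TopHat2 2.0.8 and cutadapt 1.0, with build hg19. Depth is unknown. The 8 genes and the tests were chosen with earlier results of these data known. Sites overlapping a span by at least 1 nt on its strand were taken, and a site belonged to the last 5 kb by its middle. Percentiles count sites at or below a score. Replicate scores at a combined site come from the interval sharing the most bases. Named sites are, per gene, the recurrent combined site with the highest score and the widest, and over all genes the 10 with the highest lowest percentile. Bins, flanks and the contrast of ends with the rest were chosen after seeing the data. Sequence and other pathway genes were not analysed here, since the reference used here is GRCh38. Computation used scipy 1.17.1, pandas 2.3.3, numpy 2.4.6 and Python 3.11.15, and the code was tested on simulated data. Coordinates are 1-based.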

Additional observations from a re-analysis of the deposited data

How the results depend on the processing

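Across 9 results, 64 alternative values were computed. Of these, 50 differed from the reported value by less than its spread between replicates or its 95% interval for counting error. A further 14 differed by more, and 0 changed sign. Most of the 9 results are shares, densities or percentiles, which cannot change sign. The bases called in all 3 replicates are a single value without such a spread, and each of their alternatives was counted among the 14. For the recurrent share of single genes, 43 of 64 alternatives differed by less and 21 by more. With at least 50% of each interval shared, the recurrent share was 16.2%, beside 13.4% in the whole list, and with equal numbers of top-scoring sites 17.9%, beside 13.1%. Without each replicate in turn it ranged from 28.5% to 58.4%, the difference between ends and rest from 9.75 to 29.0 points, the bases called in all remaining replicates from 18.7 to 46.1 nt per kb (18.4 with all 3) and the mean correlation from 0.600 to 0.701. The upper values of share, bases and correlation, and the lowest difference, came without replicate 1. With equal numbers of sites the difference was 4.99 points, a change beyond the 21.1 points used as its spread. Those 21.1 points are the SD of the differences for overlap with 1 list at a time. They are not a spread of the difference for overlap with all 3 lists. By this measure the fall from 26.8 to 9.75 points without replicate 1 was counted among the 50, although the difference became much smaller. The share of combined sites overlapping the p-filtered list was 62.6% at LOD above 2 and 45.8% with at least 50% of the site covered. The combined list gave 176 sites per 100000 listed (195 as the mean of replicates) and a strand share of 98.4%. The last 2 kb held 6.69% of sites and the last 10 kb 19.95%. Windows of other length hold other shares by construction. Leaving out a replicate can only raise the recurrent share and the bases called in all remaining replicates, since fewer lists must overlap. Asking for at least 50% overlap, or keeping fewer sites per list, can only lower the shares of overlapping sites. The cause of the other moves, and of the size of each move, was not tested. No paired analysis was possible because negative controls have no values of their own here.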

Other observations

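Some sites scored high in the combined list without being found in all 3 replicates. In each of the 8 genes the highest-scoring such site was listed in replicates 2 and 3 but not in replicate 1. Little else was possible: over the whole combined list 25.4% of sites overlapped replicate 1 and 22.9% overlapped all 3 lists. Few sites in replicate 1 could therefore miss another list, and the pattern is not particular to these genes. The highest was in TNRC6A, at chr16:24786241-24786330, with a combined LOD of 15.2. It alone of these 8 had no overlapping interval in the p-filtered list. DROSHA followed with 13.7 at chr5:31410696-31410775 and DICER1 with 13.3 at chr14:95604716-95604815. All were singled out with their values in view.

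Neighbouring sites lay closer together in the 8 genes than in the lists as a whole, with median gaps of 665, 330 and 335 nt in replicates 1, 2 and 3 against 855, 455 and 425 nt. DICER1 had the shortest median gap in replicate 1, 388 nt, and AGO2 the longest in replicates 2 and 3, 630 and 915 nt. A gap over a whole list can also span stretches between genes.

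Past the 3′ end of TNRC6B, after 10 kb with at most 1 site per replicate in each 5-kb bin, 3, 6 and 7 sites lay between 10 and 15 kb. In RefSeq gene order on GRCh38.p14 the next gene there is ADSL, an enzyme of purine synthesis. Whether these sites belong to it was not tested.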
